A study of Mus musculus with 5 samples.

Results

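The Toll-like receptors Tlr1, Tlr2, Tlr3, Tlr4, Tlr6, Tlr7, Tlr9 and Tlr13, the co-receptor Cd14 and the adaptor Myd88 were described across the libraries of a Stat3 deletion experiment in mouse microglia. These 10 genes were taken by symbol from the 23420 genes listed, and all 10 were found. The rule that names them does not use their values, but earlier results of these data were known when the set was proposed. In both groups CD11b-positive, propidium iodide-negative cells were sorted from the forebrain at postnatal day 8, and each library pooled 2 to 4 pups, male and female. The knockout group, of genotype Cx3cr1CreERT2/+:Stat3fl/fl, held 3 libraries. The control group held 2 libraries from Stat3fl/fl littermates, which carry the floxed allele but no Cre. The design text gives daily tamoxifen from postnatal day 1 to 3 for the Cre carriers and does not say whether the controls received it, while the sample labels call all 5 libraries untreated. Cre was driven from Cx3cr1, which is active in microglia and also in other mononuclear phagocytes, and the knockout group has 1 targeted copy of that gene, so that the deletion of Stat3 and the altered Cx3cr1 locus cannot be told apart.

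Toll-like receptors are membrane proteins that recognise microbial and damage-associated molecules, and macrophages such as microglia are among the main cells that carry them. Tlr1, Tlr2, Tlr4 and Tlr6 act at the cell surface on lipids and lipoproteins, whereas Tlr3, Tlr7, Tlr9 and Tlr13 act in endosomes on nucleic acids. Cd14 hands lipopolysaccharide to Tlr4 and its partner Ly96, and Myd88 carries the signal of every receptor listed except Tlr3, which signals through Ticam1.

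Tlr1 and Tlr6 are neighbouring paralogs whose RNA is in part identical, which bears on every value given for them. Tlr1 lies on chromosome 5 from 64924679 to 64933563 and Tlr6 on the same strand from 64952031 to 64960097 (GRCm38, minus strand). Of the 40-base windows in the annotated transcripts, the length of the reads, 15.9% of those of Tlr1 occur in Tlr6 and 14.3% of those of Tlr6 occur in Tlr1. The longest stretch common to both coding sequences is 229 bases, at coding positions 1468 to 1696 of Tlr1 and 1507 to 1735 of Tlr6, and is shown because a read within it cannot be assigned to either gene.
Tlr1 and Tlr6, shared coding stretch: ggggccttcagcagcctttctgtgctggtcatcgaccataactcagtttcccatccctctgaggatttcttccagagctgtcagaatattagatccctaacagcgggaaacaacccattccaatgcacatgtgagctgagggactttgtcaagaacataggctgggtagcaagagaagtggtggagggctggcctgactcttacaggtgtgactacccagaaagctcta
The values of Tlr1 and Tlr6 are therefore uncertain. In Tlr2, Tlr7, Tlr9, Tlr13 and Cd14, 0 windows occurred in another gene's transcripts, and in Tlr4 0.396% did.

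RefSeq promoter windows on GRCm38.p6 were present for 7 members. The 250 bases before each annotated start were searched on both strands for the STAT palindrome TTCNNNGAA, the NF-kB consensus, the interferon-stimulated response element (GAAA, any 2 bases, GAAA) and the PU.1 core GAGGAA. Windows of 30 bases are shown for Tlr2, the surface receptor with an NF-kB match, and for Myd88, the adaptor, where a STAT and an interferon element match overlap. Capitals mark the matched bases.
Tlr2, chr3:83841761-83841790, minus strand: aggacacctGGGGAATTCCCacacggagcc
Myd88, chr9:119340042-119340071, minus strand: gcggagcTTCTCGGAAAGCGAAAgaaggag
The matches start 173 bases before the RefSeq start of Tlr2 and 46 bases before that of Myd88. The GENCODE starts differ. In GENCODE the Tlr2 window overlaps an exon of Tlr2, and the Myd88 window lies within the Myd88 gene but outside its exons. Among the 32851 windows of 250 bases searched, 7.25% held the NF-kB consensus, 7.02% the STAT palindrome, 2.98% the interferon element and 23.3% the PU.1 core. Other members held matches too. The NF-kB consensus occurred 211 bases before the start of Tlr3, an endosomal receptor, the STAT palindrome before 1 annotated start of Tlr1, and 2 overlapping interferon elements before 1 start of Tlr6. The PU.1 core occurred before starts of Tlr1, Tlr9 and Tlr13. Such matches describe the letters only.

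The deposited values are log2 expression, centred for each gene on a value outside the table. Differences between libraries can thus be read, while the level of one gene cannot be set against that of another. The sequencing depth behind each value is unknown. Of 23420 genes, 9408 were tested, those above the value that the transform gives to 0 reads in at least 2 libraries, and 9 of the 10 members were among them. Tlr1 was at the 0-read value in 4 libraries and was not tested. Control replicate 1 stood apart, with a median over the tested genes of -0.16 log2 against 0.08 to 0.24 in the other libraries. Stat3 was not lower in the knockout-labelled libraries (0.43 ± 0.47, SD, n = 3) than in the controls (0.26 ± 0.26, SD, n = 2), with a limma adjusted p of 0.947. It therefore does not bear out the labels, and how much of its count comes from outside the floxed part is not given. Cx3cr1, the gene that carries the Cre insertion, stood in all 3 knockout-labelled libraries below both controls, 3.23 ± 0.20 (SD, n = 3) beside 4.13 ± 0.26 (SD, n = 2), but its difference of -0.90 log2 did not pass (limma adjusted p = 0.638). Directions below refer to the knockout-labelled libraries.

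None of the 9 tested members passed the test. With limma, an empirical Bayes linear model fitted to all tested genes, with p-values adjusted by Benjamini-Hochberg and called below 0.05, 0 members and 0 of 9408 genes passed (0%). The smallest adjusted p over all genes was 0.573. At an unadjusted p under 0.05 stood 1 member, Tlr4, against 7.77% of tested genes. In Tlr2 and Tlr4 every knockout-labelled library lay above both controls, against 13.8% of tested genes. In such counts a library at the 0-read value was taken as neither above nor below another at that value, which can be recognised only where at least 3 libraries hold it (17.2% with such ties counted). No member lay below both controls in all of them, against 7.06% of tested genes. In mean difference 9 of the 10 members were on the positive side, as were 60% of tested genes, and the members' median was 0.57 log2 against 0.13 over all tested genes. P-values measure the spread between pools of pups.

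**Figure D1:**
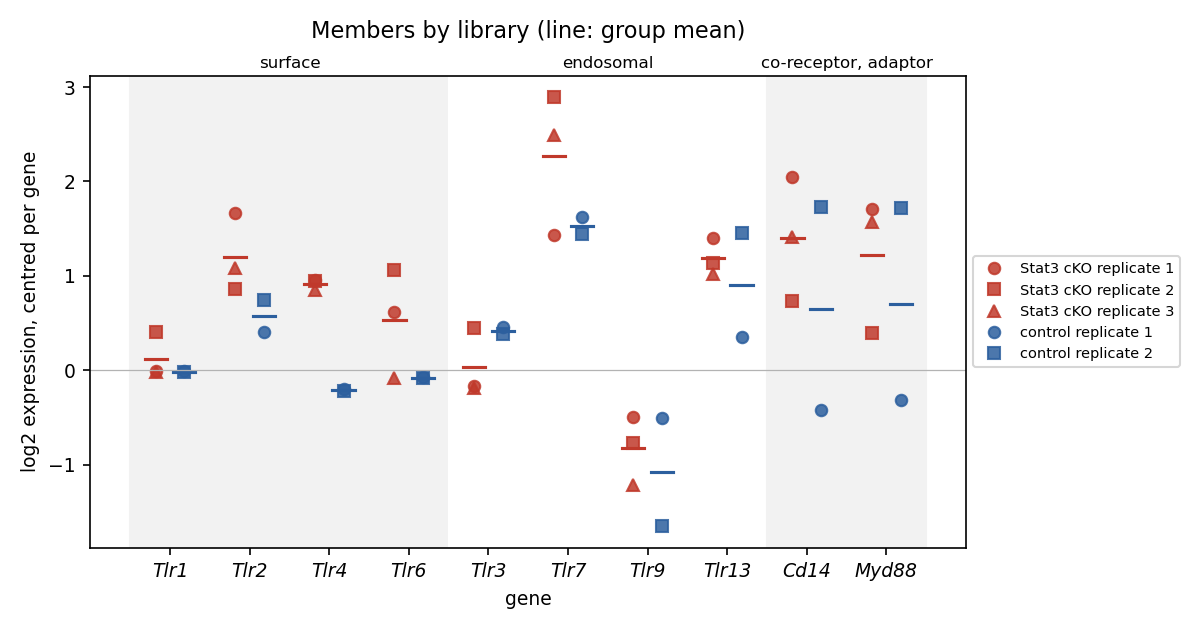
Log2 expression centred per gene (y axis) of each member (x axis) in the 3 knockout-labelled libraries (red) and the 2 controls (blue), with lines at the group means. The red points of Tlr2 and Tlr4 all lie above the blue ones, and control replicate 1 lies far below control replicate 2 for Cd14, Myd88 and Tlr13.

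Of the surface receptors, Tlr4 stood farthest from the controls. Tlr4, the lipopolysaccharide receptor, lies on chromosome 4 from 66827584 to 66930284 (GRCm38). It stood at 0.95, 0.95 and 0.85 log2 in the knockout-labelled libraries, against -0.20 and -0.22 in the controls. The groups did not overlap, and the replicates of each were almost at the same value. On average it was 0.92 ± 0.05 (SD, n = 3) there and -0.21 ± 0.01 (SD, n = 2) in the controls, a difference of 1.12 log2 units (SE 0.35, 95% interval 0.32 to 1.93). The limma adjusted p was 0.612, and ran from 0.0621 to 0.886 under the alternatives, the lowest being the fit without a filter on low values. In that fit Rpl10a, Slc39a14 and Cers5, the genes nearest to Tlr4 as given below, had the same limma adjusted p. The Tlr4 difference was 1.11 to 1.15 with any 1 library left out.

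The Tlr4 replicates lay closer together than those of most genes. Only 2.69% of tested genes had as small an SD among the knockout-labelled libraries, and 5.04% among the controls. The 3 knockout-labelled values were spaced in the same proportion as libraries at 0 reads are, to within 0.0309% of the span, although they lay far above the control values. Of the tested genes 2.56% showed that spacing, to within 0.02 of the ratio, in a range of at most 0.2 log2. In 50 tested genes (0.531%) both controls were also lower, with a gap no larger than found between libraries at 0 reads. The controls lay 0.020 log2 apart, a gap of the size found between libraries at 0 reads, but a pair of libraries is too few to recognise that value. Whether equal small read counts give this spacing was not tested.

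Tlr2, which pairs with Tlr1 or Tlr6 to bind bacterial lipopeptides, lies on chromosome 3 from 83836272 to 83841767 (GRCm38). It stood at 1.67, 0.86 and 1.08 log2 in the knockout-labelled libraries, against 0.41 and 0.75 in the controls. Every knockout-labelled library was above both controls, with replicate 2 only just above control replicate 2. On average it was 1.20 ± 0.42 (SD, n = 3) there and 0.58 ± 0.24 (SD, n = 2) in the controls, a difference of 0.62 log2 units (SE 0.40, 95% interval -0.30 to 1.55, limma adjusted p = 0.772). The difference was 0.39 without knockout replicate 1 and 0.38 with libraries centred on their median. With that centring the groups overlapped, and only Tlr4 lay above both controls throughout, against 8.34% of tested genes, while Tlr3 lay below both, against 13.3%. With quantile normalization Tlr2 and Tlr4 again lay above both controls (10.1% of tested genes) and 0 members below (9.96%).

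Its partners Tlr1 and Tlr6 were uneven across the libraries. Tlr6 stood at 0.62, 1.06 and -0.08 log2 in the knockout-labelled libraries, against -0.07 and -0.09 in the controls. Knockout replicate 3 was as low as both controls, and these 3 values lay within 0.015 log2 of each other. They followed the spacing of libraries at 0 reads to within 3.07% of the span. That is past the tolerance of 2%, so they were not counted as at the 0-read value. The higher values of Tlr6 were in knockout replicates 1 and 2 only. The Tlr6 difference was 0.61 with SE 0.43 (limma adjusted p = 0.775), 0.92 without knockout replicate 3 and 0.34 without knockout replicate 2. Tlr1 stood at 0.40 in knockout replicate 2 and at the 0-read value in the other 4 libraries, between -0.01 and -0.02 log2. Its difference of means, 0.14, therefore came from 1 library.

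Among the endosomal receptors, no gene separated the groups. Tlr7, the single-stranded RNA receptor on the X chromosome (167304929 to 167330558, GRCm38), stood at 1.43, 2.89 and 2.49 log2 in the knockout-labelled libraries. In the controls it stood at 1.62 and 1.44. Knockout replicates 2 and 3 were well above the controls, and replicate 1 was level with the lower one. On average it was 2.27 ± 0.75 (SD, n = 3) there and 1.53 ± 0.13 (SD, n = 2) in the controls, a difference of 0.74 log2 units (SE 0.49, 95% interval -0.37 to 1.85, limma adjusted p = 0.773). Leaving out knockout replicate 1 gave 1.16, and leaving out replicate 2 gave 0.43.

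Tlr3, the receptor for double-stranded RNA and the only receptor listed that does not use Myd88, was also the only member with a negative difference. It stood at -0.17, 0.45 and -0.19 log2 in the knockout-labelled libraries, against 0.45 and 0.38 in the controls. Knockout replicate 2 was level with the controls, and replicates 1 and 3 were below both. The difference was -0.39 with SE 0.39 and a 95% interval from -1.27 to 0.50 (limma adjusted p = 0.797), and -0.60 without knockout replicate 2. Tlr3 lies on chromosome 8 from 45395665 to 45411080 (GRCm38), and 7.32% of its exonic bases overlap the antisense gene Gm45542. The library kit does not mark strand, so reads from that overlap cannot be told apart.

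Tlr13, a receptor for bacterial ribosomal RNA that mice have and humans lack, stood at 1.40, 1.13 and 1.02 log2 in the knockout-labelled libraries. It stood at 0.35 and 1.45 in the controls, so that the controls spanned a wider range than the knockout libraries, 1.10 against 0.38 log2. The difference was 0.28 with SE 0.44 (limma adjusted p = 0.892). Leaving out control replicate 2 gave 0.83, and leaving out control replicate 1 gave -0.27. Tlr9, the receptor for unmethylated CpG DNA, stood at -0.50, -0.77 and -1.21 log2 in the knockout-labelled libraries, against -0.50 and -1.66 in the controls. Here control replicate 2 was the lowest library, the reverse of Tlr13. The Tlr9 difference was 0.25 with SE 0.46 (limma adjusted p = 0.903). It was 0.83 without control replicate 1, 0.09 without knockout replicate 1 and 0.44 without knockout replicate 3, and turned to -0.32 without control replicate 2.

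**Figure D2:**
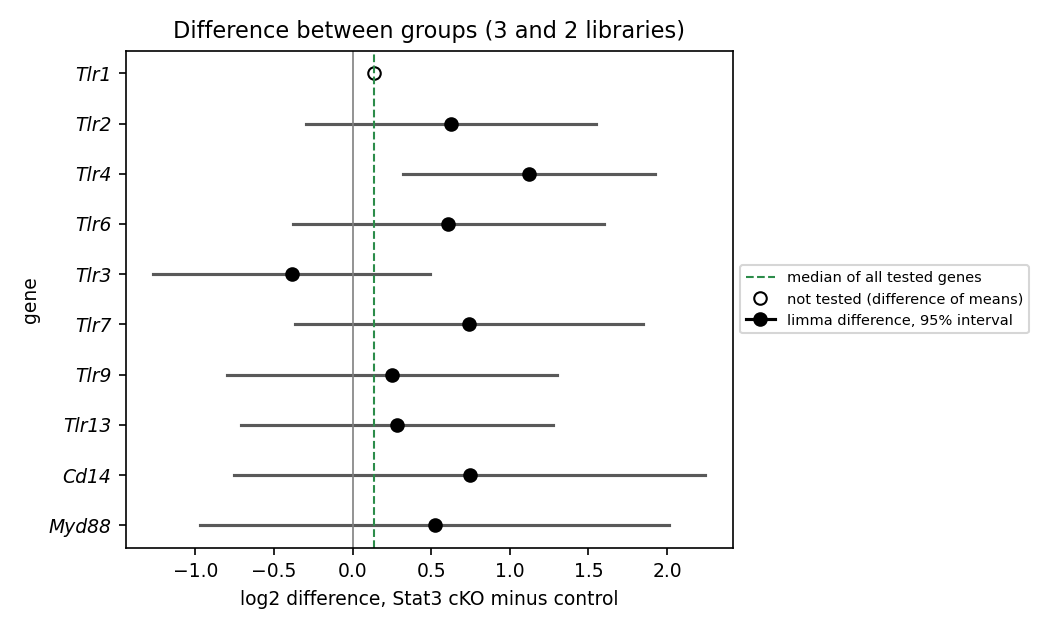
Log2 difference, knockout-labelled libraries minus controls (x axis), for each member (y axis), with limma 95% intervals for the 9 tested genes. The interval of Tlr4 (0.32 to 1.93) lies above 0, those of the other 8 include it, and the dashed line marks the median of all tested genes at 0.13.

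The surface receptors as a set lay higher than the endosomal ones relative to the controls, but by an amount that single genes decided. The median log2 difference was 0.62 over the 4 surface receptors, from 0.14 to 1.12, and 0.27 over the 4 endosomal receptors, from -0.39 to 0.74, beside 0.13 over all tested genes. The surface values include Tlr1, which was at the 0-read value in 4 libraries and not tested. For Tlr4 and Tlr6 the gap between the controls was also of the size found between libraries at 0 reads. Controls at the 0-read value leave little room for a negative difference. How far this enters the contrast was not tested. With each gene set to its control mean, the mean of the surface receptors was 0.74, 0.75 and 0.39 log2 in the knockout-labelled libraries and -0.04 and 0.04 in the controls. For the endosomal receptors it was 0.10, 0.48 and 0.09 against 0.04 and -0.04, so that knockout replicates 1 and 3 were only slightly above the controls.

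Within each library, the surface mean minus the endosomal mean was 0.64, 0.26 and 0.30 log2 in the knockout-labelled libraries and -0.07 and 0.07 in the controls. This averaged 0.40 ± 0.21 (SD, n = 3) in the knockout-labelled libraries, and the controls averaged 0.00 ± 0.11 (SD, n = 2). A shift common to all genes of a library cancels in this measure, and the groups did not overlap. No test was made of it, since the genes in it were chosen with earlier results known. The difference of 0.40 was 0.28 to 0.48 with 1 library left out. It was 0.24 without Tlr4 and 0.20 without Tlr3, and without either of these the groups overlapped, as they did without Tlr13, at 0.42. It was 0.57 without Tlr7.

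**Figure D3:**
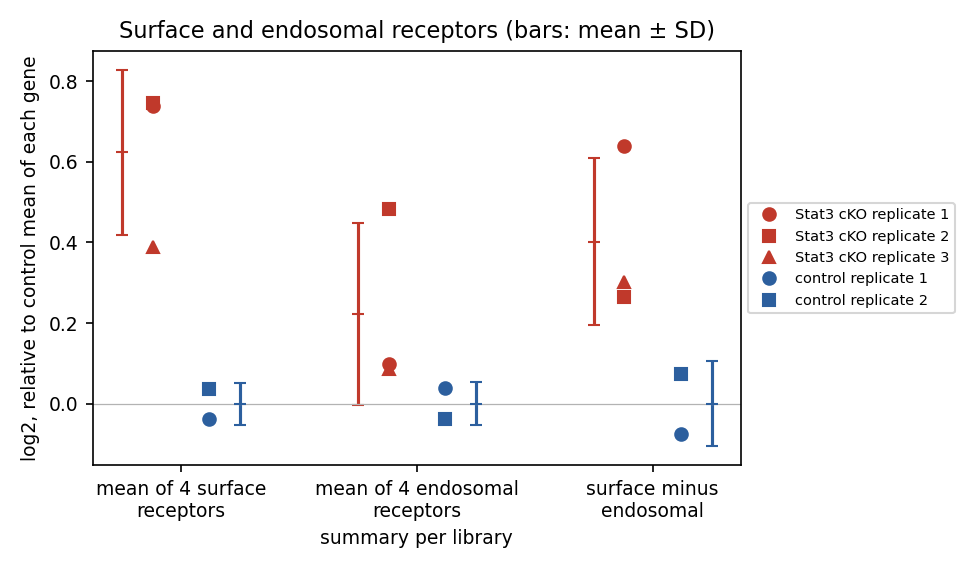
Mean of the 4 surface receptors, mean of the 4 endosomal receptors and their difference in each library (y axis, log2 relative to the control mean of each gene), with mean ± SD per group. In the difference the knockout-labelled libraries (red) sit at 0.26 to 0.64 and the controls (blue) at -0.07 and 0.07.

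Cd14 and Myd88 varied more between the controls than between the groups. Cd14 stood at 2.05, 0.73 and 1.42 log2 in the knockout-labelled libraries, against -0.42 and 1.73 in the controls. Myd88 stood at 1.71, 0.39 and 1.57 against -0.32 and 1.72. In both genes control replicate 1 was the lowest library and knockout replicate 2 the next, while control replicate 2 was among the highest. The 2 controls differed by 2.15 log2 for Cd14 and by 2.04 for Myd88. Control replicate 1 was the lowest library for 4 of the 10 members, Tlr2, Tlr13, Cd14 and Myd88, against 23.7% of tested genes. Control replicate 2 was the lowest for Tlr1, Tlr4, Tlr6 and Tlr9, against 35.5% of tested genes. Ties at the 0-read value were not set aside in these counts. Control replicate 2 exceeded replicate 1 by at least 2 log2 in 1.76% of tested genes.

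The group difference of Cd14 was 0.75 with SE 0.66 and a 95% interval from -0.75 to 2.24 (limma adjusted p = 0.796). That of Myd88 was 0.52 with SE 0.65 and a 95% interval from -0.97 to 2.01 (limma adjusted p = 0.851). Both turned with control replicate 1 left out, to -0.33 for Cd14 and -0.50 for Myd88, and without control replicate 2 they were 1.82 and 1.54. Without knockout replicate 1 the differences were 0.42 and 0.28, without knockout replicate 2 the Myd88 difference was 0.94, and with libraries centred on their median it was 0.28.

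Myd88 lies on chromosome 9 from 119335934 to 119341411 (GRCm38), and its 5′ end overlaps Acaa1a, a peroxisomal thiolase gene on the opposite strand that covers 11.3% of the exonic bases of Myd88. Acaa1a stood at 0.90, -0.05 and 0.76 log2 in the knockout-labelled libraries, against -0.05 and 1.24 in the controls. As with Myd88, knockout replicate 2 and control replicate 1 were the 2 lowest libraries and control replicate 2 the highest. How far shared reads enter the value of either gene was not tested.

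**Figure D4:**
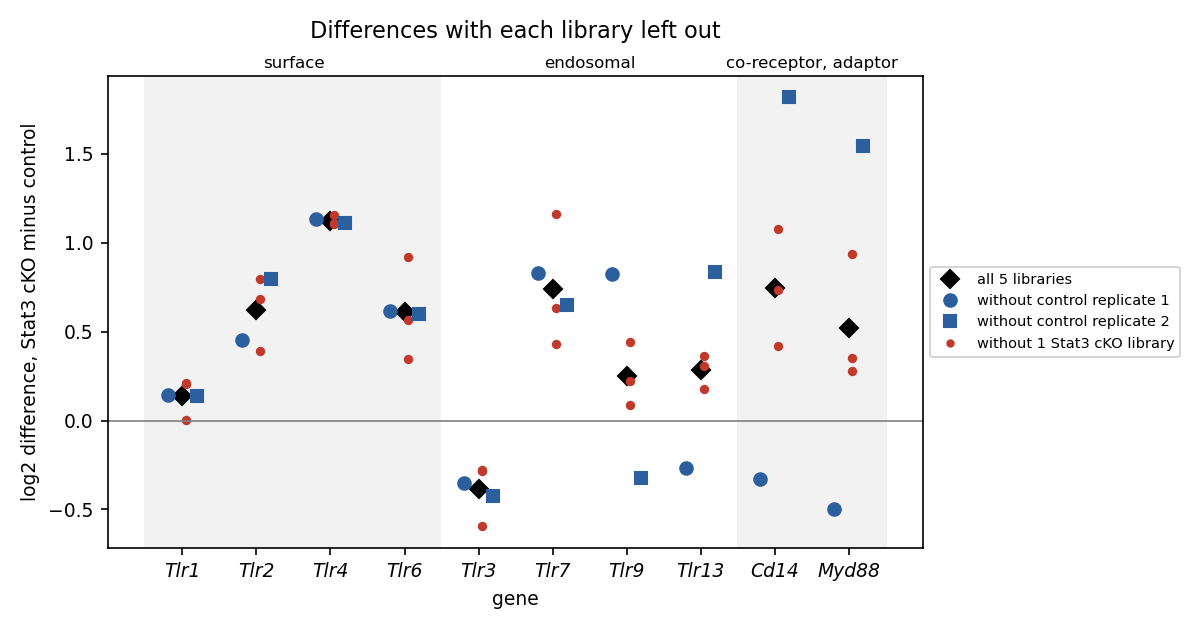
Log2 difference, knockout-labelled libraries minus controls (y axis), for each member (x axis) with all 5 libraries (black) and with each library left out in turn. Tlr4 stays between 1.11 and 1.15, whereas leaving out control replicate 1 turns Cd14, Myd88 and Tlr13 to negative values and leaving out control replicate 2 does so for Tlr9.

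Lists of markers of other CD11b-positive cells were summed beside these values, and their sums for monocytes, neutrophils and border macrophages did not overlap between the groups. The summed log2 values of 9 listed monocyte markers ran from 0.82 to 4.93 in the knockout-labelled libraries and from -3.59 to -1.07 in the controls. For 10 neutrophil markers the sums were 4.44 to 9.44 against 0.06 to 0.19. For 8 border macrophage markers they were 5.48 to 7.48 against 2.37 to 4.26. For 12 microglia markers the sums overlapped, at 30.4 to 34.4 against 33.0 to 35.4. In all 4 lists 0 tested genes passed. Above both controls in every knockout-labelled library were 3 of 7 tested monocyte markers, 2 of 6 neutrophil markers, 2 of 7 border macrophage markers and 2 of 12 microglia markers, beside 13.8% of all tested genes. Differences were positive for 7 of 7 tested monocyte markers, 5 of 6 neutrophil, 4 of 7 border macrophage and 4 of 12 microglia markers. Of all tested genes 60% were positive. The list medians were 0.85, 0.98, 0.58 and -0.14 log2 in that order, beside 0.13 over all tested genes. The border macrophage markers Mrc1, F13a1 and Clec12a had negative differences of -0.16, -0.21 and -0.23 log2. S100a8, Plac8 and Cbr2 were at the 0-read value in knockout replicate 2 and both controls. The monocyte marker Ly6c2 and the neutrophil marker Elane were at the 0-read value in all libraries. Lists of other cells were also summed, and where their sums were separated the gaps were smaller. The sums of 6 lymphocyte markers (0.11 to 0.92 against -0.26 to -0.21) did not overlap either. Nor did those of 6 neuron markers (-12.85 to -10.55 against -13.12 to -12.89). Of these, 6 and 4 genes were at the 0-read value in 4 or 5 libraries. Sums for astrocytes, oligodendrocyte lineage, endothelial and red blood cells overlapped. Monocytes and neutrophils also carry Tlr2, Tlr4 and Cd14, and the part of these cells in the values above was not tested. In sorted bulk samples a change in the number of cells of a type and a change in RNA per cell cannot be told apart.

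The rest of the pathway was read from 8 lists of 75 genes, 57 of them tested. None passed in either direction. In every knockout-labelled library 9 lay above both controls and 5 below both, shares near those of all tested genes (13.8% and 7.06%), and the median difference was 0.12 log2 against 0.13 over all tested genes. Among other family members, Tlr5 and Tlr11 were at the 0-read value in all libraries and Tlr12 in 4. Tlr8, an endosomal RNA receptor, stood at 0.57, 0.57 and -0.06 log2 in the knockout-labelled libraries, against -0.05 and -0.06 in the controls, a difference of 0.41 (limma adjusted p = 0.796). Its 3 low libraries, which were at the 0-read value, were the same 3 that were low for Tlr6.

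Of the accessory genes that work with surface receptors, 4 were tested and 2, Cd180 and Ly86, lay above both controls in every knockout-labelled library. Of all tested genes 13.8% did so. Cd180, a receptor-like protein that restrains or aids Tlr4 signalling depending on the cell, stood at 1.55, 2.11 and 2.10 log2 against -0.34 and 1.12. The Cd180 difference was 1.53 with a 95% interval from 0.39 to 2.66 (limma adjusted p = 0.612), 0.80 without control replicate 1. Ly96, the Tlr4 partner that binds lipopolysaccharide, stood at 0.58, 0.57 and -0.11 against -0.10 and -0.11 (difference 0.45, limma adjusted p = 0.796). It was at the 0-read value in the same 3 libraries as Tlr8. Both values of Ly96 above 0 were thus in knockout replicates 1 and 2.

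Of 9 genes that fold, carry or cleave the receptors, 0 lay above both controls in every knockout-labelled library and 1, the protease gene Ctsl, lay below both. Of all tested genes 13.8% lay above and 7.06% below. The median was -0.13 log2. Ctsl stood at 2.31, 2.57 and 2.27 against 2.71 and 2.81 (difference -0.38, limma adjusted p = 0.796). Cnpy3, a chaperone of several receptors, had a difference of -0.54 (limma adjusted p = 0.785), which turned to 0.02 without control replicate 1. Among the 5 other adaptors, Tirap, which bridges Tlr2 and Tlr4 to Myd88, stood at 0.06, 0.45 and -0.02 against -0.53 and -0.04. Its difference was 0.44 (limma adjusted p = 0.796), 0.20 without control replicate 1 or with libraries centred on their median and 0.69 without control replicate 2. Ticam2, which bridges Tlr4 to Ticam1, had a difference of -0.39 (limma adjusted p = 0.829), -0.08 without control replicate 1.

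Among 13 tested kinases and ubiquitin ligases, 4 lay above both controls and 1 below, beside 13.8% and 7.06% of all tested genes. Peli1, a ubiquitin ligase of the IRAK complex, stood at 0.59, 1.19 and 0.47 against -0.11 and -0.73, a difference of 1.17 (limma adjusted p = 0.612). Tab2, an adaptor of the kinase TAK1, stood at 0.46, 0.76 and 0.31 against 1.47 and 1.27, a difference of -0.86 (limma adjusted p = 0.638). Of 6 tested inhibitors, Nfkbia, which holds NF-kB in the cytoplasm, had a difference of 1.18 (limma adjusted p = 0.705), and 1.78 without knockout replicate 3. Cyld, a deubiquitinase, had a difference of 0.58 (limma adjusted p = 0.775), and 0.31 without knockout replicate 3.

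Among 9 transcription factors, 0 lay above both controls and 2 below (13.8% and 7.06% of all tested genes), with a median of -0.05 log2. Rela, the main transactivating NF-kB subunit, stood at 0.22, -0.41 and -0.45 against 0.64 and 1.25, a difference of -1.16 (limma adjusted p = 0.612). Irf3, which acts after Tlr3 and Tlr4, had a difference of -0.76 (limma adjusted p = 0.714). Of 17 target genes 10 were tested, and 2 (Tnf and Ccl4) lay above and 1 below both controls, beside the same shares of all tested genes. Il6, Il12b, Ifnb1 and Nos2 were at 0 in all libraries. Tnf and Ccl4, cytokine genes induced by Toll-like receptors, had differences of 1.73 (limma adjusted p = 0.573) and 1.72 (limma adjusted p = 0.612). Both were known from earlier work on these data to stand apart and are no independent evidence for the list.

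**Figure D5:**
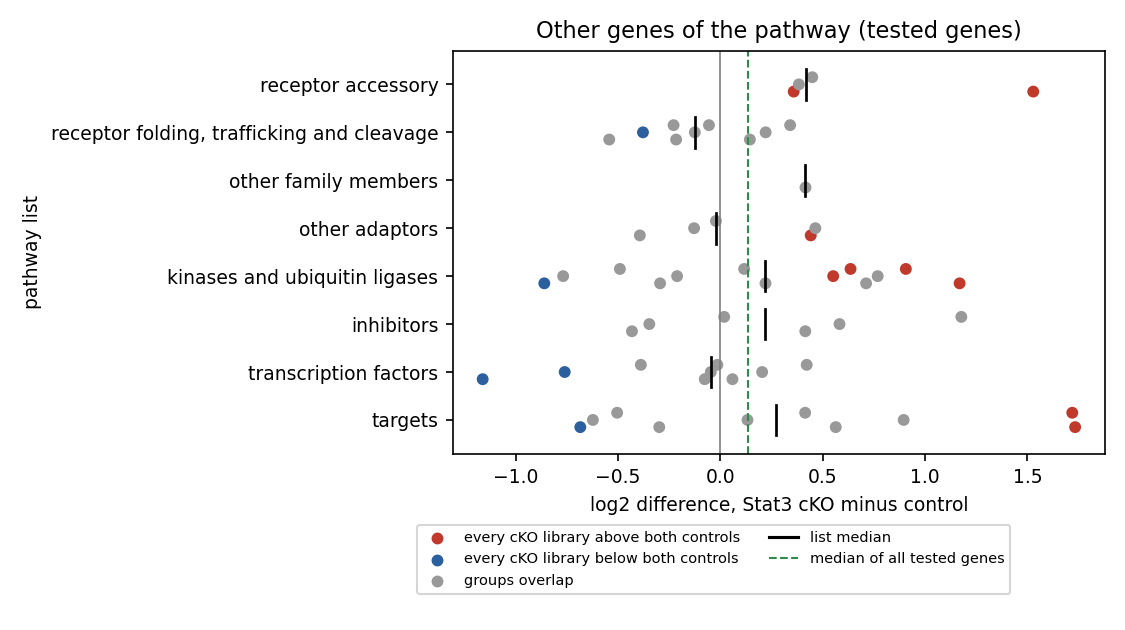
Log2 difference, knockout-labelled libraries minus controls (x axis), of the 57 tested genes in 8 pathway lists (y axis), with the median of each list and of all tested genes. Red points, every knockout-labelled library above both controls, make up 2 of 4 accessory genes, and 0 of 9 folding, trafficking and cleavage genes, beside 13.8% of all tested genes.

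The genes most like Tlr4 and Tlr7, the surface and endosomal receptors with the smallest p, were sought by the Euclidean distance over the 5 libraries after centring each gene on its mean. Nearest to Tlr4 were Rpl10a, Slc39a14 and Cers5, at distances of 0.06, 0.12 and 0.13 log2. Rpl10a, a ribosomal protein gene, stood at 0.88, 0.88 and 0.79 in the knockout-labelled libraries and at -0.21 and -0.23 in the controls. In Rpl10a, Slc39a14 and Cers5 the knockout-labelled values kept the spacing described above for Tlr4. Nearest to Tlr7 were Cenpc1, A330035P11Rik and Zfp120, at 0.14, 0.14 and 0.15 log2. Cenpc1, A330035P11Rik and Zfp120 were at the 0-read value in knockout replicate 1 and both controls, Cenpc1 at -0.33, -0.33 and -0.36. How far such low values make these genes alike was not tested. The distances describe 5 libraries, and 0 of the 6 genes passed the test.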

How the data were processed

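PolyA RNA of sorted cells was sequenced and the reads were aligned by the authors to GRCm38/mm10 with TopHat2 2.0.13, per the submitters' processing notes, which also name DESeq2 without role or version. No source used here gives the read counter or the annotation. The values deposited are log2 values, a scale inferred from their range (-4.12 to 7.69). Of 23420 genes, 6974 were 0 throughout and 4464 followed 1 fixed pattern over the libraries, as a regularized log gives to genes with no reads. For genes with few reads, such a transform pulls differences towards 0. Genes on that pattern in 4 or 5 libraries (tolerance 2% of the span) and 27 names turned into spreadsheet dates were left out. Depth is unknown, so no counting interval is given.

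Groups and replicate numbers came from the titles. The 9408 genes left were fitted with limma 3.58.1 in R 4.3.3 (~ group, eBayes), on the values as deposited, adjusted over all genes (Benjamini-Hochberg, 0.05). The fit was tested on simulated data. Tables were made in Python 3.11.15 with numpy 2.4.6 and pandas 2.3.3, and plots with matplotlib 3.10.9. Gene coordinates, exons and transcripts came from GENCODE vM21 on GRCm38. Named genes were all members, Stat3 and Cx3cr1, the 2 genes of each pathway list with the smallest p, and the 3 genes nearest to 1 receptor of each kind. The other genes of the lists were counted only. Ly86, Mrc1, F13a1, Clec12a, S100a8, Plac8, Cbr2, Ticam1, Acaa1a, Gm45542, further Toll-like receptors and single genes at the 0-read value were named after their values had been seen. The members and lists were chosen with earlier results of these data known. Alternatives were no filter, other scalings, limma with trend and robust estimation, a replicate block and leaving out each library.

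Marker lists of lymphocytes, neurons, astrocytes, oligodendrocyte lineage, endothelial and red blood cells held 0, 2, 5, 1, 3 and 1 tested genes, and 0 of them passed.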

Additional observations from a re-analysis of the deposited data

How the results depend on the processing

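No member passed the test under any of the 10 alternatives. Over all genes 0 passed in each, except that 1 gene, Sord, passed without the filter on low values, a fit over 16423 genes. With libraries centred on their median, a choice that moves the median of all tested genes from 0.13 to -0.11, the surface median was 0.37 and the endosomal median 0.021, against 0.62 and 0.27, and Tlr1 turned to -0.11 and Stat3 to -0.081. With quantile normalization Tlr1 was -0.11 and Stat3 -0.024. Leaving out 1 library gave surface medians from 0.48 to 0.80, endosomal medians from 0.13 to 0.40 and a surface minus endosomal difference from 0.28 to 0.48. With 1 library left out, single genes that changed sign ran from -0.27 to 0.83 (Tlr13), -0.33 to 1.82 (Cd14), -0.50 to 1.54 (Myd88), -0.10 to 0.35 (Stat3) and -1.11 to 0.018 (Cnpy3), the sign depending on control replicate 1 (for Stat3 also on knockout replicate 1), and from -0.32 to 0.83 (Tlr9), depending on control replicate 2. Leaving out each receptor was added after seeing the data, and only the value without Tlr3 (0.20) moved the surface minus endosomal difference by more than 1 SD. With the replicate number as a block, the surface median was 0.80 and 0 genes passed. Libraries of the 2 groups share numbers 1 and 2 only, and their deviations from the group means correlated at 0.00 and -0.07 across genes. The deviations of 2 controls are equal and opposite, so these correlations cannot settle whether the numbers are pairs. In the main fit the numbers were not taken as pairs. The depth is unknown, so how small a difference could have been detected for members near the 0-read value, such as Tlr1, cannot be given.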
